A study of Homo sapiens with 74 samples.

Results

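The 10 genes described here belong to the H3K9 methylation and heterochromatin machinery and were followed through RNA and DamID libraries of HEK293T cells, a transformed human embryonic kidney line. They were taken by symbol: the methyltransferases SUV39H1, SUV39H2, SETDB1, EHMT1 and EHMT2, the HP1 proteins CBX1, CBX3 and CBX5, the corepressor TRIM28 and the chromatin remodeller ATRX. All 10 of 10 genes were found among the 39037 rows of the RNA table, in all 8 RNA libraries, and all 10 passed the filter on low counts that left 17725 genes for testing. Their RefSeq spans touched 17 bins of 100 kb, of which 12 bins, holding the 8 autosomal genes, were in the table of 28163 bins used for bulk and single-cell DamID.

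The study maps contacts of the genome with the nuclear lamina by DamID, which fuses the bacterial adenine methyltransferase Dam to lamin B1 (LMNB1) and reads where GATC became methylated. Transfection was transient, with the reagent FuGene HD, and the labels give 1 mM Shield-1 for 20 hours to the transfected groups. RNA was sequenced from cells with DamV133A-LMNB1, with DamV133A alone, with m6A-Tracer, a fluorescent protein that binds methylated GATC, and from untreated cells, with 2 libraries of each. Bulk DamID came from DamV133A-LMNB1 and DamV133A cells (2 libraries each), and a comparison of Dam variants added DamWT-LMNB1 and DamWT beside libraries of DamV133A-LMNB1 and DamV133A (2 libraries each). Single cells were 15 batch 1 cells with DamV133A-LMNB1 and m6A-Tracer, 36 batch 2 cells with DamV133A-tdTomato-LMNB1 and m6A-Tracer-NES, and 3 batch 1 cells with DamV133A and m6A-Tracer. The labels give a different library kit for each batch, so construct, kit and batch cannot be told apart between them. They do not say that replicates were separate cultures, so p-values here measure only the spread between these libraries.

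Methylated H3K9 marks silent chromatin. SUV39H1 and SUV39H2 write the trimethyl mark on pericentromeric repeats, SETDB1 writes it on retroelements and zinc-finger gene clusters where TRIM28 (KAP1) brings it, and EHMT1 (GLP) and EHMT2 (G9a) act as a pair that writes the mono- and dimethyl marks in euchromatin and in chromatin at the lamina. CBX5 (HP1 alpha), CBX1 (HP1 beta) and CBX3 (HP1 gamma) bind the methylated residue through a chromodomain, and ATRX, with the chaperone DAXX, deposits histone H3.3 in heterochromatin. Chromatin at the nuclear lamina is rich in H3K9 methylation.

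DamID can read a position only where the DNA holds GATC, so the start regions of the members were searched for that motif. GATC reads the same on both strands, and Dam methylates its A. RefSeq (GRCh38.p14) promoters, from 250 bases before to 50 bases after a start, were matched for 8 of the 10 genes with 12 entries, and 5 of the 12 entries held at least 1 GATC. Of all 34789 promoters of the same length, 41.8% held one. The 4 entries printed here show both cases, a gene with the motif at one start and not at the other (SUV39H1), an HP1 gene with it (CBX5) and an HP1 gene without it (CBX3). They lie at chrX:48695304-48695603 (plus strand), chrX:48696484-48696783 (plus strand), chr12:54280073-54280372 (minus strand) and chr7:26201193-26201492 (plus strand), and capitals mark GATC.
SUV39H1, upstream start: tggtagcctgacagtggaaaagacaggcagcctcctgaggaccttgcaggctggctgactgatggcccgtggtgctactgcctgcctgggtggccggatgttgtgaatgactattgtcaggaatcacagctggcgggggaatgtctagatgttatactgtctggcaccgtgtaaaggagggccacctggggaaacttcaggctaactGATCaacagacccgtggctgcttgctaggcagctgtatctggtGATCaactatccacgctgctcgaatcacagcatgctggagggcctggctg
SUV39H1, downstream start: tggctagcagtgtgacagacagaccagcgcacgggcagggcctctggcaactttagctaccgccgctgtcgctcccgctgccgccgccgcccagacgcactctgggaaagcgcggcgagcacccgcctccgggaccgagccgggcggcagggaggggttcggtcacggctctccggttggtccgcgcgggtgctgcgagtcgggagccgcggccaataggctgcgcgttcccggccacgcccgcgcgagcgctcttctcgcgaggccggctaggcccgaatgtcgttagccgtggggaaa
CBX5: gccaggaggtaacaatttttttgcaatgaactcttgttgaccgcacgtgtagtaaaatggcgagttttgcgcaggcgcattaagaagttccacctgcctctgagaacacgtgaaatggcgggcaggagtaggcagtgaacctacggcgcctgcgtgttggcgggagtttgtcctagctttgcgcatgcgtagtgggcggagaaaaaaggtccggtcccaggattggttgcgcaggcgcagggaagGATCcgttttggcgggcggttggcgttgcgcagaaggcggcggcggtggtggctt
CBX3: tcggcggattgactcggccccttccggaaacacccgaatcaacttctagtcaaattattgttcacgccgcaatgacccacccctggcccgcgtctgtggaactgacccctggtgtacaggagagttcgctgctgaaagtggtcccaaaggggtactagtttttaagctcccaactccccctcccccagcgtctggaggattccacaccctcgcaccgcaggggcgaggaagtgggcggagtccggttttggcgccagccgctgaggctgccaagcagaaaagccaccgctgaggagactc

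In the upstream SUV39H1 entry the motif stood at positions -43 and 0, counted from the start base as 0. In the CBX5 entry it stood at position -5. SUV39H2 held it at -223, EHMT1 at -63, and a CBX5 entry from an internal start at 31. SETDB1, EHMT2, CBX1 and CBX3 held none in their entries. All 19363 GATC motifs in the searched promoters coincided with fragment borders of the deposited Dam variant table, 100% of them. Those fragments are defined by GATC, so the match follows from their definition and does not show that a position was read.

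RNA depth was 39690886 to 51455298 estimated counts per library, with a median of 42940634. The replicates of DamV133A-LMNB1 stood apart from each other: 29.2% of 10550 genes differed by more than 1.2-fold between them, against 0.891% in DamV133A, 1.00% in m6A-Tracer and 0.995% in untreated cells. LMNB1 was at 2546 and 2055 CPM, counts scaled to library size, in the DamV133A-LMNB1 libraries, at 249.5 and 253.2 CPM with DamV133A, at 250.7 and 257.3 CPM with m6A-Tracer and at 766.2 and 768.2 CPM in untreated cells, so it was highest where its fusion was expressed. Untreated cells, which carry no construct, were above DamV133A and m6A-Tracer cells by this gene, what lay behind it was not tested, and they are the baseline of 3 of the 6 comparisons below. All 8 HEK293T markers were detected, summing to 1009 to 1385 CPM, while of 8 markers of other cell types 2 were detected (COL1A1 and COL3A1, with the list summing to 29.2 to 33.9 CPM), and CDH5 and HBB were under 0.1 CPM. Of the 8 HEK293T markers, 4 were lower in DamV133A-LMNB1 than in untreated cells (1346 of all 17725 genes). NEFM was among them, with a log2 difference of -0.68. In DamV133A 4 were also lower than in untreated cells (2323 of all genes), and in m6A-Tracer 3 (832). Relative to DamV133A, 4 were higher in DamV133A-LMNB1 (2266 of all genes). Whether this had a part in the results below was not tested. In bulk RNA, fewer cells of a type and less RNA per cell cannot be told apart.

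Among the 10 genes, CBX1 was lower in DamV133A than in untreated cells, CBX5 and ATRX were lower in DamV133A-LMNB1 than in DamV133A cells, and SUV39H2 was higher in both Dam groups than in untreated cells. In m6A-Tracer, CBX1 was also called lower than in untreated cells, and SUV39H2 differed by a similar 0.22 on the log2 scale but missed the threshold. A gene was called where its p from the quasi-likelihood test of edgeR, adjusted by Benjamini-Hochberg over all tested genes, was under 0.05. Between DamV133A-LMNB1 and DamV133A, 3 of 10 genes were called, against 20.4% of all genes (12.8% higher, 7.58% lower), and the median log2 difference was 0.06 for the 10 genes and -0.02 for all genes. Between DamV133A-LMNB1 and untreated cells, 3 of 10 genes were called, against 19% of all genes. Between DamV133A and untreated cells, 3 of 10 were called against 26.7%, and between m6A-Tracer and untreated cells, 1 of 10 against 12.4%. These shares are near the background, and nothing about the 10 genes as a set is read from them. All comparisons with one group share that group's 2 libraries. Leaving out a library leaves 1 in its group and changes the shared spread. Calls are then lost or gained over all genes, not only among the 10.

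A pair of comparisons called none of the 10 genes. Between DamV133A-LMNB1 and m6A-Tracer, edgeR called 0 of 10 genes and 0.237% of all genes. At an unadjusted edgeR p under 0.05 were 4 of the 10, beside 5792 of all 17725 genes. DESeq2 called 3 of 10 there (EHMT1, CBX5 and ATRX), against 23.1% of all genes. Between DamV133A and m6A-Tracer, edgeR called 0 of 10 and 0.124% of all genes, and DESeq2 called 0 of 10 against 0.322%. There 2 of the 10, EHMT1 and CBX1, were at an unadjusted edgeR p under 0.05, beside 1593 of all 17725 genes.

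**Figure D1:**
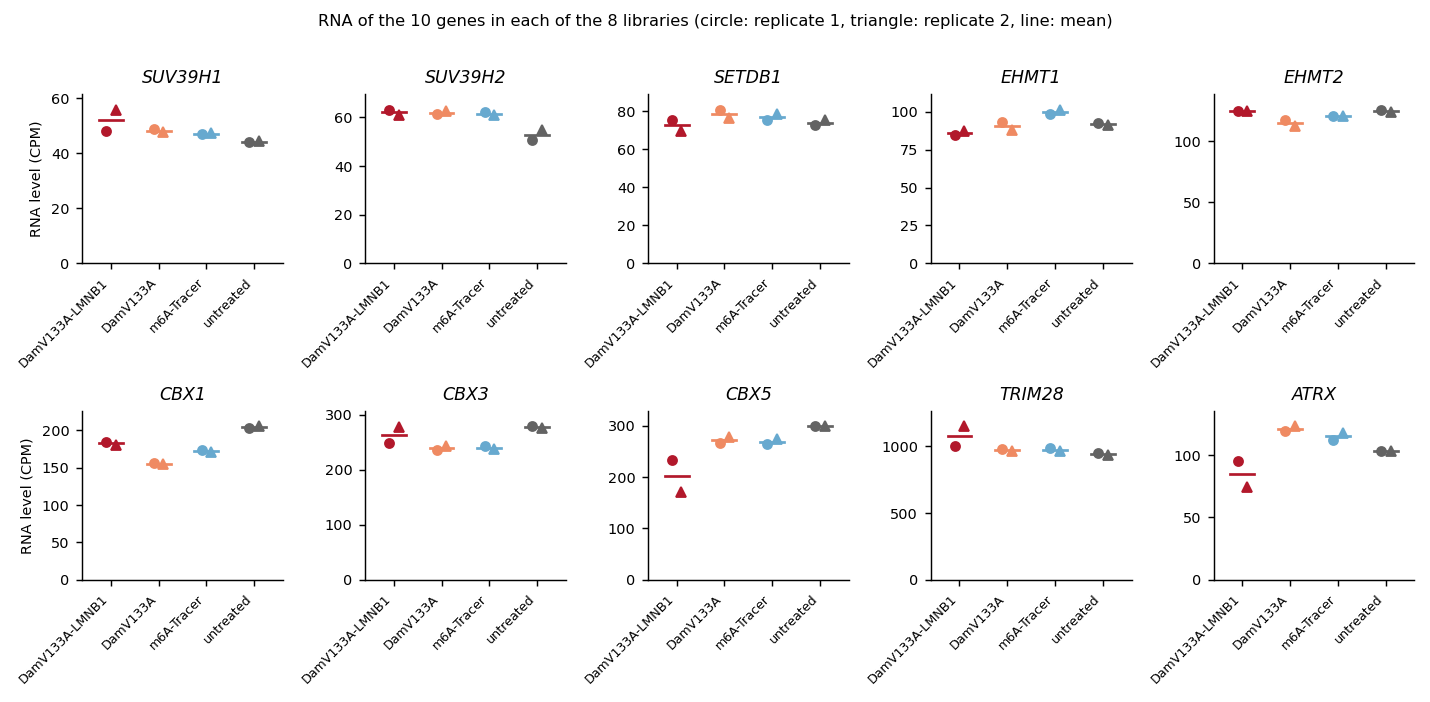
RNA level of each of the 10 genes in CPM (y axis from 0, different scale for each gene) in DamV133A-LMNB1, DamV133A, m6A-Tracer and untreated cells, with a circle for replicate 1, a triangle for replicate 2 and a line at the mean of the 2 libraries. CBX1 separates all 4 groups, with untreated cells highest and DamV133A lowest, and both DamV133A-LMNB1 points of CBX5 and ATRX lie below every other library.

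Of the 5 methyltransferases, SUV39H2 was the one called. It was at 63.2 and 61.1 CPM in DamV133A-LMNB1 cells, 61.3 and 62.5 CPM in DamV133A, 62.3 and 60.8 CPM in m6A-Tracer and 50.9 and 55.0 CPM in untreated cells. The 3 transfected groups overlapped one another, and all their libraries lay above both untreated libraries. SUV39H2 rose in DamV133A-LMNB1 over untreated cells by a log2 difference of 0.23 ± 0.061 (SE; edgeR adjusted p = 0.0346). It rose in DamV133A over untreated cells by 0.23 ± 0.060 (SE; edgeR adjusted p = 0.0282). In m6A-Tracer the difference from untreated cells was 0.22 ± 0.061 (SE; edgeR adjusted p = 0.0536), which missed the threshold. Both calls ended when any one DamV133A, m6A-Tracer or untreated library was left out, and with a replicate block, while they held without either DamV133A-LMNB1 library.

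SUV39H1, the partner of SUV39H2, was not called in any of the 6 comparisons. It was at 48.2 and 55.9 CPM in DamV133A-LMNB1, 48.7 and 47.8 CPM in DamV133A, 46.9 and 47.4 CPM in m6A-Tracer and 44.2 and 44.3 CPM in untreated cells, so that only the untreated libraries lay below all others. Its difference in DamV133A-LMNB1 over untreated cells was 0.23 ± 0.075 on the log2 scale (SE; edgeR adjusted p = 0.0655). SETDB1 ranged between 69.7 and 80.8 CPM over the 8 libraries, with no call, and DamV133A-LMNB1 overlapped untreated cells.

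EHMT1 was at 84.5 and 87.3 CPM in DamV133A-LMNB1, 93.1 and 87.9 CPM in DamV133A, 98.5 and 101.2 CPM in m6A-Tracer and 92.6 and 90.9 CPM in untreated cells. The m6A-Tracer libraries were the highest and the DamV133A-LMNB1 libraries the lowest, without overlap between them. That difference was -0.22 ± 0.055 on the log2 scale (SE; edgeR adjusted p = 0.0656), not called. EHMT2, its partner enzyme, was at 124.3 and 124.6 CPM in DamV133A-LMNB1, 117.1 and 112.6 CPM in DamV133A, 120.3 and 120.4 CPM in m6A-Tracer and 125.7 and 123.5 CPM in untreated cells. DamV133A was the lowest group, and its difference from untreated cells was -0.12 ± 0.049 (SE; edgeR adjusted p = 0.114), not called. The RNA table held 7 rows under the symbol EHMT2, which were summed. The row with most counts held 29.7% of them, and the row ENSG00000224143 held 9.00% and 9.09% in the DamV133A-LMNB1 libraries, against 1.22% to 4.65% in the other 6, so the split of reads between these rows is uncertain.

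Of the HP1 genes, CBX1 was the most separated. It was at 184.7 and 179.9 CPM in DamV133A-LMNB1, 156.5 and 154.5 CPM in DamV133A, 173.9 and 171.2 CPM in m6A-Tracer and 202.4 and 205.6 CPM in untreated cells. No 2 of the 4 groups overlapped, with untreated cells highest, then DamV133A-LMNB1, m6A-Tracer and DamV133A. CBX1 fell in DamV133A relative to untreated cells by 0.39 on the log2 scale (SE 0.047; edgeR adjusted p = 0.00131), and this call held in 15 of 15 other settings, with adjusted p up to 0.0265. In m6A-Tracer it fell relative to untreated cells by 0.24 (SE 0.047; edgeR adjusted p = 0.0160), and in DamV133A-LMNB1 by 0.16 (SE 0.046; edgeR adjusted p = 0.0458). Relative to DamV133A, it rose in DamV133A-LMNB1 by 0.23 ± 0.047 (SE; edgeR adjusted p = 0.0217). The DamV133A-LMNB1 call against untreated cells also ended with library totals, without the filter on low counts, with DESeq2 and with a replicate block, and those of DamV133A-LMNB1 against DamV133A and of m6A-Tracer against untreated cells ended with library totals. Both DamV133A-LMNB1 calls ended with only the 4 libraries fitted. The calls other than the first ended when any one DamV133A, m6A-Tracer or untreated library was left out, and held without either DamV133A-LMNB1 library.

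CBX3 was at 249.5 and 277.7 CPM in DamV133A-LMNB1, 236.4 and 243.7 CPM in DamV133A, 242.9 and 238.5 CPM in m6A-Tracer and 279.8 and 277.2 CPM in untreated cells. The DamV133A and m6A-Tracer libraries lay below both untreated libraries, and the DamV133A-LMNB1 libraries reached from near the one level to near the other. CBX3 fell in DamV133A relative to untreated cells by 0.21 on the log2 scale (SE 0.059; edgeR adjusted p = 0.0319). The difference of m6A-Tracer from untreated cells was of the same size, -0.21 ± 0.059 (SE; edgeR adjusted p = 0.0560), but was not called. The DamV133A call ended with library totals and without any one DamV133A, m6A-Tracer or untreated library. Processed pseudogenes of CBX3 took at most 0.375% of its counts in a library, and those of CBX1 and CBX5 less.

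CBX5 was at 232.5 and 170.9 CPM in DamV133A-LMNB1, 265.7 and 278.5 CPM in DamV133A, 263.7 and 273.3 CPM in m6A-Tracer and 299.0 CPM in both untreated libraries. Both DamV133A-LMNB1 libraries were below all others, and the gap between them was the widest of the 10 genes, -0.44 on the log2 scale for replicate 2 over replicate 1. CBX5 fell in DamV133A-LMNB1 relative to untreated cells by 0.57 (SE 0.12; edgeR adjusted p = 0.0174), a call kept in 12 of 15 other settings and lost without either untreated library and with only these 4 libraries fitted. Relative to DamV133A it fell by 0.43 (SE 0.12; edgeR adjusted p = 0.0418). That difference was -0.65 without DamV133A-LMNB1 replicate 1 and -0.23 without replicate 2, and the call ended with a replicate block and without any one DamV133A, m6A-Tracer or untreated library.

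TRIM28, the corepressor, was at 1004 and 1150 CPM in DamV133A-LMNB1, 981.1 and 967.4 CPM in DamV133A, 985.2 and 960.8 CPM in m6A-Tracer and 946.3 and 934.3 CPM in untreated cells. Both DamV133A-LMNB1 libraries were the highest, and none of its comparisons was called. Its difference in DamV133A-LMNB1 over untreated cells was 0.20 ± 0.063 on the log2 scale (SE; edgeR adjusted p = 0.0636).

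ATRX was at 95.1 and 74.4 CPM in DamV133A-LMNB1, 119.3 and 123.2 CPM in DamV133A, 112.1 and 117.8 CPM in m6A-Tracer and 102.9 and 103.6 CPM in untreated cells. The DamV133A-LMNB1 libraries were the lowest and the DamV133A libraries the highest, with no overlap between any groups. ATRX fell in DamV133A-LMNB1 relative to DamV133A by 0.52 on the log2 scale (SE 0.10; edgeR adjusted p = 0.0211), the largest difference of the 10 genes in that comparison. The value was -0.69 without DamV133A-LMNB1 replicate 1 and -0.35 without replicate 2, and the call ended without any one DamV133A, m6A-Tracer or untreated library. The differences of DamV133A-LMNB1 from m6A-Tracer, -0.44 ± 0.10 (SE; edgeR adjusted p = 0.0643), and from untreated cells, -0.28 ± 0.10 (SE; edgeR adjusted p = 0.0896), were not called.

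**Figure D2:**
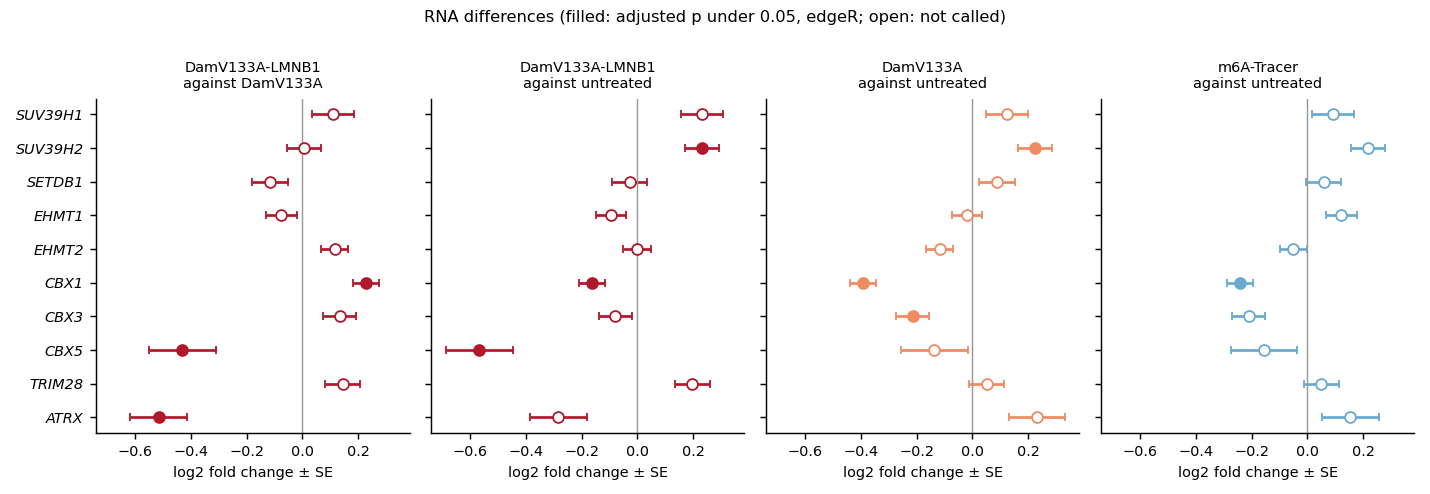
Fitted log2 difference (x axis) of each of the 10 genes in 4 RNA comparisons, with bars of 1 SE on each side and filled points where the adjusted p was under 0.05. CBX5 and ATRX lie furthest below 0 in DamV133A-LMNB1 against DamV133A (-0.43 and -0.52), and CBX1 in DamV133A against untreated cells (-0.39).

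Which of the 10 genes were called turned on the DamV133A-LMNB1 libraries, whose spread enters the shared estimate even where they are not compared. Without DamV133A-LMNB1 replicate 1, DamV133A against untreated cells called 7 of 10 genes against 47.6% of all genes: SUV39H1, SUV39H2 and ATRX were higher and EHMT2, CBX1, CBX3 and CBX5 lower in DamV133A. In the same setting m6A-Tracer against untreated cells called 6 of 10 against 37.7%, with SUV39H2, EHMT1 and ATRX higher and the 3 HP1 genes lower in m6A-Tracer. Without DamV133A-LMNB1 replicate 2 these counts were again 7 of 10 (47.5% of all genes) and 6 of 10 (37.3%), and with only the 4 libraries of the pair fitted they were 7 of 10 (50.9%) and 6 of 10 (40.6%). DamV133A against m6A-Tracer then called 2 of 10 (11.6%), EHMT1 and CBX1 both lower in the settings that left out a DamV133A-LMNB1 library (11.3% and 11.4%). For DamV133A-LMNB1 against DamV133A, 8 of 10 genes were called without DamV133A-LMNB1 replicate 1 (48.9% of all genes), 4 of 10 without replicate 2 (24%), and 0 of 10 without any one library of another group or with only the 4 libraries fitted (0.00578%). The calls common to both of its left-out settings were EHMT2 and CBX1, higher, and CBX5 and ATRX, lower. For EHMT2 this depended on the summing of its 7 rows. Between DamV133A-LMNB1 and DamV133A in the fit of all 8 libraries, row ENSG00000224143 differed by 1.99 on the log2 scale. The most abundant row differed by -0.074. Against m6A-Tracer, DamV133A-LMNB1 had 7 of 10 genes called without its replicate 1 (45.7% of all genes), 4 of 10 without its replicate 2 (15%) and 0 of 10 with only the 4 libraries (0.00588%). Against untreated cells it had 6 of 10 in both settings (45.9% and 29.2%) and 0 of 10 with only the 4 libraries (1.48%).

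A list of 56 genes that work with these proteins was read in the same fits. In DamV133A-LMNB1 against untreated cells, 9 of 56 were higher and 6 lower, with a median log2 difference of -0.02. In DamV133A against untreated cells 12 were higher and 3 lower (median 0.11), in m6A-Tracer against untreated cells 11 and 1 (median 0.07), and in DamV133A-LMNB1 against DamV133A 3 and 12 (median -0.12), beside all-gene medians from -0.02 to 0.01. Of all genes, 2404 were higher and 2323 lower in DamV133A against untreated cells (26.7% called), 1358 and 832 in m6A-Tracer against untreated cells (12.4%), 2017 and 1346 in DamV133A-LMNB1 against untreated cells (19%) and 2266 and 1343 in DamV133A-LMNB1 against DamV133A (20.4%), so the called shares of the 56 genes are read against these. The other pair of comparisons called none of the 56. The 3 higher and 12 lower genes of DamV133A-LMNB1 against DamV133A depended on the libraries fitted. Their calls rose in number without a DamV133A-LMNB1 library and were lost without any one library of another group, as over nearly all genes. The 9 higher and 6 lower genes of DamV133A-LMNB1 against untreated cells, 15 in all, became 9 with a replicate block. Over all genes that block left 1546 higher and 929 lower. With only the 4 libraries fitted they became 0, where 1.48% of all genes were called. These calls also rose in number without a DamV133A-LMNB1 library and fell without a library of another group, as over all genes.

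The partners are named for DamV133A-LMNB1 against untreated cells, with log2 differences and edgeR adjusted p, and none of these calls held without untreated replicate 1. DAXX and RING1 are sums of 5 and 6 rows, which were not read singly. DAXX, the histone chaperone that works with ATRX, rose by 0.42 ± 0.056 (SE; adjusted p = 0.00322), at a mean of 143.7 CPM against 107.5 CPM. LRWD1, an origin recognition complex partner found at heterochromatin, rose by 0.36 (adjusted p = 0.0276), while HP1BP3, an HP1-binding histone H1 relative, fell by 0.31 (adjusted p = 0.0124) and CHD4, the NuRD remodeller, fell by 0.30 (adjusted p = 0.0407). Of the DNA methylation genes, HELLS, a remodeller needed for DNA methylation of repeats, rose by 0.31 (adjusted p = 0.00891), and MBD1, a reader of methylated DNA, rose by 0.26 (adjusted p = 0.0152). Of the H3K9 demethylases, KDM4D rose by 0.36 (adjusted p = 0.0405) and PHF2 fell by 0.30 (adjusted p = 0.0375). MORC2, which acts with the HUSH complex and SETDB1, fell by 0.28 (adjusted p = 0.0174). Of the Polycomb genes, which serve H3K27 methylation, EED, RING1 and EZH2 rose by 0.32, 0.27 and 0.24 (adjusted p = 0.0348, 0.0310 and 0.0131), and EZH1 fell by 0.55 (adjusted p = 0.0156). Every partner named as higher also had higher means in DamV133A and m6A-Tracer than in untreated cells. DAXX was at 142.6 and 130.1 CPM there. HELLS, MBD1, KDM4D and EZH2 had higher means in DamV133A than in DamV133A-LMNB1. They were at 127.9, 70.0, 9.31 and 200.9 CPM in DamV133A, against 120.3, 63.5, 8.62 and 180.1 CPM. For the other named partners, DamV133A-LMNB1 lay furthest from untreated cells by mean.

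For each called member, the gene outside the 10 with the most similar log2 CPM over the 8 libraries was found among 10540 genes. It was OXNAD1 for SUV39H2 (r = 0.988), HNRNPK for CBX1 (r = 0.987), AP3S1 for CBX3 (r = 0.988), PAG1 for CBX5 (r = 0.996) and PRRC2C for ATRX (r = 0.997). These are descriptions over libraries that fall into 4 groups, and the DamV133A-LMNB1 replicates weigh in each.

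HNRNPA2B1, an RNA-binding protein gene, starts 697 bases from CBX3 on the opposite strand. It was at 1696 and 1810.5 CPM in DamV133A-LMNB1, 1608 and 1581 CPM in DamV133A, 1686 and 1697 CPM in m6A-Tracer and 1884 and 1922 CPM in untreated cells. It fell in DamV133A relative to untreated cells by 0.26 on the log2 scale (SE 0.044; edgeR adjusted p = 0.00513) and in m6A-Tracer by 0.17 (SE 0.044; edgeR adjusted p = 0.0410), and its untreated libraries were the highest. C2, which starts 85 bases from EHMT2, was not called in any comparison. Of 36 protein-coding genes in the members' bins, 30 were tested, and 3 were higher and 7 lower in DamV133A against untreated cells (26.7% of all genes called), 4 and 4 in m6A-Tracer against untreated cells (12.4%), 3 and 3 in DamV133A-LMNB1 against untreated cells (19%) and 8 and 2 in DamV133A-LMNB1 against DamV133A (20.4%). DamV133A-LMNB1 against m6A-Tracer called 1 of them, lower (0.237%), and DamV133A against m6A-Tracer called 0 (0.124%).

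In bulk DamID, every tested bin of the 8 autosomal members was lower with DamV133A-LMNB1 than with DamV133A. All 12 of 12 bins passed the same test on the counts, against 36.2% of 27944 bins called lower over the genome, and none was called higher. The median log2 difference of the 12 bins was -0.91, beside -0.06 for all tested bins and -0.94 for all bins called lower. The member bins therefore sat near the middle of the bins called lower. Depth was 402171358 to 524019579 coverage counts per library.

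EHMT1, which spans chr9:137619005-137836127, had the lowest bin, the middle one of its 3, with 11.5 and 11.5 CPM in DamV133A-LMNB1 and 23.6 and 27.1 CPM in DamV133A. Its log2 difference was -1.14, and those of the 2 other EHMT1 bins were -0.83 and -1.03. SETDB1 (chr1:150926263-150964737) had 37.1 and 30.1 CPM in DamV133A-LMNB1, against 57.1 and 82.6 CPM in DamV133A, a difference of -1.06. The groups did not overlap in any of these bins, and the SETDB1 replicates of DamV133A lay far apart. EHMT2 (chr6:31879759-31897698), in the major histocompatibility region, had the smallest difference, -0.65, with 22.5 and 24.8 CPM in DamV133A-LMNB1 and 34.6 and 39.7 CPM in DamV133A. SUV39H2 (chr10:14878866-14904315) fell by 0.69 in its first bin and by 1.02 in its second.

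The HP1 genes lay within a narrow range in bulk DamID. CBX1 (chr17:48070059-48101478) fell by 0.91 and 0.82 in its 2 bins, CBX3 (chr7:26201443-26213607) by 0.96 and CBX5 (chr12:54230942-54280122) by 0.85. CBX5, for example, had 31.2 and 36.8 CPM in DamV133A-LMNB1, against 57.6 and 64.5 CPM in DamV133A, without overlap. TRIM28 (chr19:58544064-58550715) had 19.0 and 25.1 CPM in DamV133A-LMNB1, against 39.6 and 43.3 CPM in DamV133A, a difference of -0.91. In the authors' deposited table the log2 values of these 12 bins ran from -1.09 to -0.61 with a median of -0.87, and 0 of the 12 bins carried the authors' ciLAD mark, which was set for 1200 bins, 4.26% of the table, or their cLAD mark. Without DamV133A replicate 2, 10 of 12 bins were called, with EHMT2 and the last EHMT1 bin not called.

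**Figure D3:**
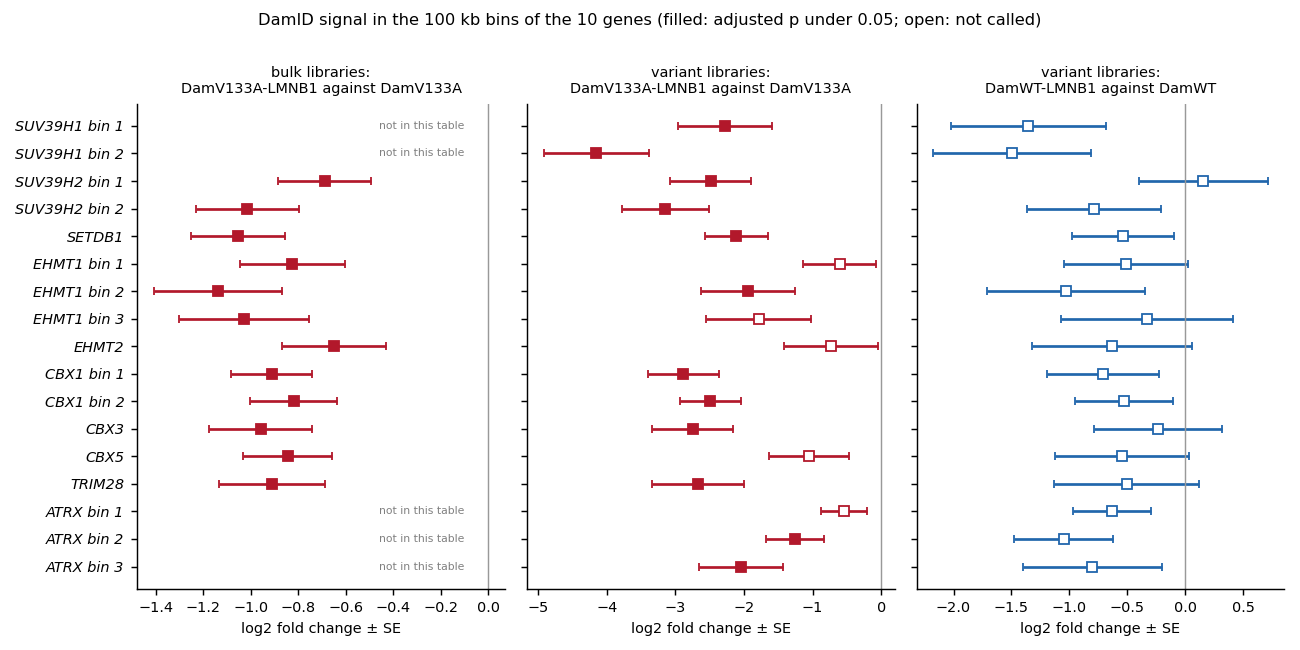
Fitted log2 difference (x axis, a different scale in each panel) in the 100 kb bins of the members for DamV133A-LMNB1 against DamV133A in bulk libraries (12 bins), the same in Dam variant libraries (17 bins), and DamWT-LMNB1 against DamWT (17 bins), with bars of 1 SE and filled squares where the adjusted p was under 0.05. All bins lie below 0 with DamV133A, from -1.14 to -0.65 in bulk and from -4.15 to -0.54 in the variant libraries, and with DamWT 16 of 17 lie below 0 and none is filled.

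**Figure D4:**
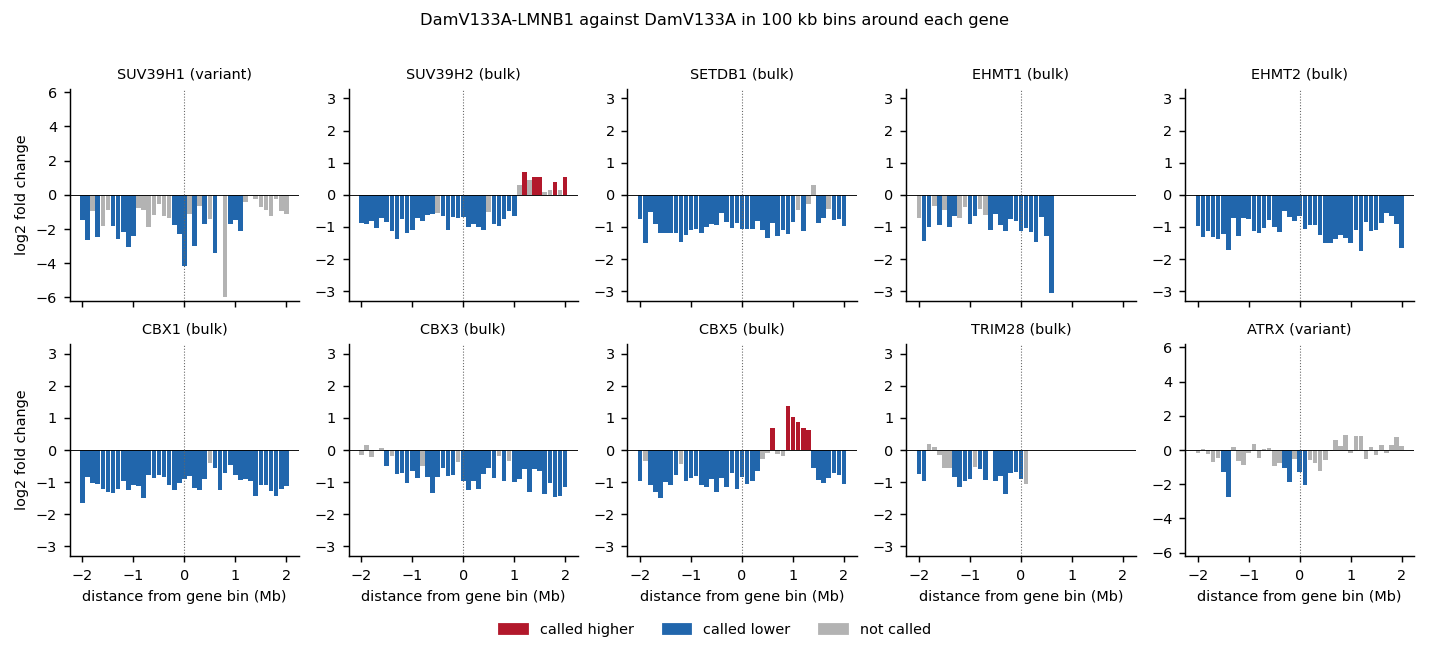
Log2 difference of DamV133A-LMNB1 against DamV133A (y axis) in 100 kb bins out to 2 Mb on each side of each gene (x axis, distance in Mb), from bulk libraries for the 8 autosomal genes and from variant libraries, on a wider y scale, for SUV39H1 and ATRX; red bars were called higher, blue bars lower and grey bars neither. EHMT2 and CBX1 lie in long stretches of lower bins, and SUV39H2 and CBX5 have 5 and 6 higher bins to one side.

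The members differed in how far they lay from bins called higher with DamV133A-LMNB1. In bulk DamID, 0 bins within 500 kb of each of the 8 genes were called higher. The nearest one was 520 kb from CBX5, 1096 kb from SUV39H2, 2380 kb from EHMT2, 3899 kb from CBX1 and 3901 kb from CBX3. It was 7235 kb from SETDB1 and 17819 kb from EHMT1, and TRIM28, near the end of chromosome 19, was 36544 kb from one of only 3 such bins among 561 on its chromosome. Within 2 Mb, 6 bins around CBX5 and 5 around SUV39H2 were called higher, while 41 of 41 around EHMT2 and 40 of 41 around CBX1 were called lower. In the variant libraries, which add the X chromosome, the nearest higher bin was 2514 kb from ATRX and 6891 kb from SUV39H1. Distances of autosomal genes changed there. SUV39H2 was nearest at 996 kb, before CBX5 at 1020 kb, CBX3 was at 2001 kb and EHMT2 at 7680 kb.

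The Dam variant libraries were shallower, 3160747 to 10664435 counts each, and cover all 10 genes. With DamV133A, 17 of 17 member bins were below 0 in the fusion relative to untethered Dam, against 52.1% of all bins. Of them 12 of 17 were called lower, against 23.7% of 28733 bins, with a median log2 difference of -2.11 beside -0.10 for all bins. SUV39H1 (chrX:48695554-48709016) had the lowest value, in its second bin, where DamV133A-LMNB1 held 16 and 9 counts and DamV133A held 297 and 138 counts. The difference was -4.15 (edgeR adjusted p = 0.000801), and the groups did not overlap.

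ATRX (chrX:77504880-77786216), the longest of the 10 genes, spans 3 bins that differed. Its first bin had 33.4 and 22.4 CPM in DamV133A-LMNB1, against 38.6 and 42.8 CPM in DamV133A, a difference of -0.54, the smallest of the 17 and not called. Its last bin had 12.9 and 17.9 CPM in DamV133A-LMNB1, against 74.3 and 52.4 CPM in DamV133A, and was called lower. The other bins not called were those of CBX5 (-1.05, edgeR adjusted p = 0.139), EHMT2 (-0.73) and the first and last of EHMT1 (-0.60 and -1.79). CBX5 held 26.3 and 5.77 CPM in DamV133A-LMNB1, against 35.6 and 31.1 CPM in DamV133A, so the 2 fusion libraries lay far apart there. Without DamV133A-LMNB1 replicate 1, which leaves 1 fusion library, that difference was -2.53. Between 8 and 12 of the 17 bins were called when single libraries were left out, the fewest without DamV133A replicate 1.

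With DamWT, edgeR called 0 of 17 bins lower in DamWT-LMNB1 than in DamWT, against 0.212% of all bins. Below 0 were 16 of 17, against 50.8% of all bins. An unadjusted edgeR p under 0.05 was found for 2 of 17, beside 5970 of all 28733 bins. The median was -0.63, and DESeq2 called 1 of 17 against 14.6% of all bins. The 2 DamWT-LMNB1 libraries, of 10664435 and 4922664 counts, lay far apart in some member bins. They held 7.96 and 58.0 CPM in the last ATRX bin and 24.0 and 9.06 CPM in the second SUV39H2 bin. In others they were close, as at CBX3 with 19.2 and 18.3 CPM. The V133A effect minus the WT effect was below 0 in 16 of 17 bins (50.5% of all bins), with a median of -1.46 beside -0.02 for all bins. The edgeR test of that interaction called 0 of 17 and 0.494% of all bins, while DESeq2 called 6 of 17 against 15.2%. At an unadjusted edgeR p under 0.05 were 8 of 17, beside 6199 of all 28733 bins. Between DamV133A and DamWT alone, edgeR called 0 of 17 bins and 0% of all bins, and DESeq2 called 0 of 17 against 0.893%. There 0 of 17 were at an unadjusted edgeR p under 0.05, beside 1447 of all bins.

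In single cells, fragments in the 12 autosomal member bins were set against the number expected from summed bulk DamV133A at each cell's depth, which was 9526 to 348793 fragments. Over the 15 batch 1 DamV133A-LMNB1 cells the ratio was 0.407 (464 fragments, exact 95% Poisson interval 0.371 to 0.446, for counting error only). Over the 36 batch 2 DamV133A-tdTomato-LMNB1 cells it was 0.290 (856 fragments, 0.271 to 0.310), and over the 3 batch 1 DamV133A cells it was 1.49 (381 fragments, 1.34 to 1.64). All bins called lower in bulk had pooled ratios of 0.451, 0.473 and 1.18 in these groups. In bulk, the share of coverage counts in the member bins with DamV133A-LMNB1 was 0.448 of that with DamV133A. The cells hold unique fragment counts set against bulk coverage counts, so their ratios and the bulk ratio are unlike measures.

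Single fusion cells ran from 0.0504 over a median of 0.208 to 1.12 in batch 1 and from 0.0670 over 0.309 to 0.665 in batch 2, while the 3 DamV133A cells were at 1.21, 1.30 and 2.19. The DamV133A cells lay above every fusion cell. The highest fusion cell, cell 7 of batch 1, held 245 of the 464 fragments and had a log2 ratio of 0.43 between bins called higher and bins called lower in bulk, the lowest of the 15. Without it the batch 1 ratio was 0.238 (0.207 to 0.271). No test was run between the groups, since the labels name no culture and batch 2 has no untethered cells.

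**Figure D5:**
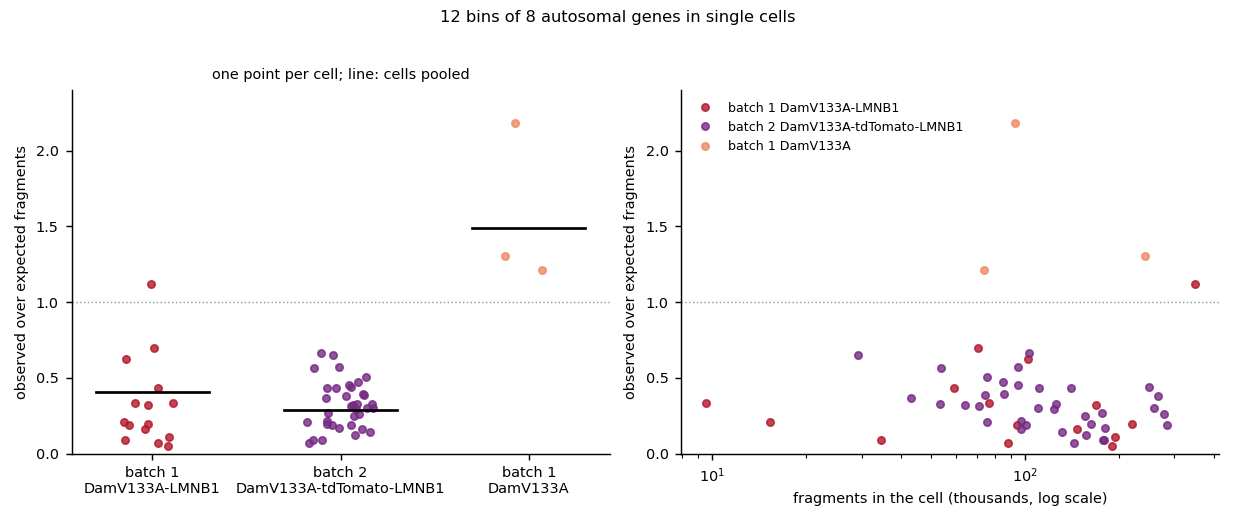
Ratio of observed to expected fragments over the 12 member bins in each single cell (y axis), by group with a line at the pooled ratio (left) and against the cell's fragment total on a log axis (right), for batch 1 DamV133A-LMNB1 (15 cells), batch 2 DamV133A-tdTomato-LMNB1 (36 cells) and batch 1 DamV133A (3 cells). The 3 DamV133A cells lie between 1.21 and 2.19, above all fusion cells, of which the highest, at 1.12, is the deepest cell.

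By gene, the pooled ratio in batch 1 fusion cells ran from 0.312 for SETDB1 to 0.615 for CBX3, in batch 2 fusion cells from 0.165 for CBX5 to 0.437 for SUV39H2, and in DamV133A cells from 0.322 for TRIM28 to 2.46 for EHMT2. CBX5, the member nearest to a bin called higher in the bulk libraries, was at 0.344 in batch 1 fusion cells, 0.165 in batch 2 fusion cells and 0.729 in DamV133A cells. TRIM28 was low in the untethered cells too: it was at 0.314 in batch 1 fusion cells (26 fragments), 0.294 in batch 2 fusion cells and 0.322 in DamV133A cells, the last from 6 fragments. Its interval in DamV133A cells, 0.118 to 0.702, lay below the pooled 1.49 of all members there. The other genes each had a lower pooled ratio in both fusion groups than in the DamV133A cells, although for CBX3 the intervals of batch 1 fusion cells (0.455 to 0.813) and DamV133A cells (0.553 to 1.52) overlapped. The batch 1 fusion values by gene depended on cell 7. Without it they ran from 0.0598 for TRIM28 (4 fragments, 0.0163 to 0.153) to 0.459 for SUV39H2, with SETDB1 at 0.105, CBX1 at 0.158, CBX5 at 0.162, EHMT2 at 0.217 and EHMT1 at 0.326. CBX3 was then at 0.342 (22 fragments, 0.214 to 0.517), beside 17 fragments in the DamV133A cells. Single batch 1 fusion cells ran from 0 to 4.79 at CBX3. The intervals cover counting error only, so no difference between groups is read from whether they overlap.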

How the data were processed

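RNA values are estimated counts per gene that the authors deposited, and they were rounded to whole numbers here. The 100 kb DamID table holds coverage counts (bulk) and unique fragment counts (single cells) per bin that the authors deposited, beside the authors' log2 values and marks of constitutive bins, which are quoted as theirs. The Dam variant table holds counts per GATC fragment that the authors deposited, summed here to 100 kb bins by fragment midpoint, which left out 0.0201% of counts. Per the submitters' processing notes the tools include Trimmomatic 0.39, BWA 0.7.15-r1140, SAMtools 1.9, bedtools 2.28, Salmon, DESeq2 and limma, and the builds hg38 and GRCh38. The step that used each is not stated there.

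Counts were fitted with edgeR 4.0.16 (glmQLFit and glmQLFTest, TMM, filterByExpr) in R 4.3.3, with all groups of a table in 1 fit and Benjamini-Hochberg adjustment over all tested genes or bins. Rows that share the symbol of a listed gene were summed: 7 for EHMT2, 5 for DAXX, 6 for RING1 and 2 each for LHX1 and PTPRC. Single rows were read for EHMT2 alone. DESeq2 1.42.0, other scalings, no filter, a replicate block, single libraries left out and fits of only the 4 libraries compared were the alternatives. The most abundant EHMT2 row alone and the single-cell ratio without cell 7 were added after seeing the data. Single-cell ratios divide fragments in the member bins by those expected from summed bulk DamV133A. CPM are TMM-scaled in RNA and DamID. Intervals are exact Poisson intervals at 95% and cover counting error only, since no molecular identifiers are stated. The edgeR script was tested on simulated data.

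The members and gene lists were chosen with earlier results of these data known. All 10 members are named. Of each other list the up to 4 genes past the threshold with the largest log2 difference in DamV133A-LMNB1 against untreated cells are named, and of neighbours those starting within 2 kb of a member. Promoter sequences are RefSeq's (GRCh38.p14), read with Python 3.11.15 and pandas 2.3.3. Replicate numbers come from the labels, which do not tie them across groups.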

Additional observations from a re-analysis of the deposited data

How the results depend on the processing

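Counts of the 10 genes called changed most with the libraries fitted. Leaving out single libraries gave 0 to 8 for DamV133A-LMNB1 against DamV133A, 0 to 7 against m6A-Tracer and 0 to 6 against untreated cells, 0 to 2 for DamV133A against m6A-Tracer, 1 to 7 for DamV133A against untreated cells and 0 to 6 for m6A-Tracer against untreated cells. The upper ends came without a DamV133A-LMNB1 library, and the lower ends without a library of another group. With only the 4 libraries compared, the counts were 0, 0, 0, 2, 7 and 6 in that order. Without the filter on low counts they were 3, 3, 5, 0, 4 and 2, and DESeq2 called 3 in DamV133A-LMNB1 against m6A-Tracer. Scaling by library totals turned the calls over all genes in DamV133A-LMNB1 against DamV133A to 1461 higher and 2373 lower, beside 2266 and 1343 with TMM, and in DamV133A against untreated cells to 3472 and 1421, beside 2404 and 2323.

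A replicate block gave 2, 0, 1, 0, 2 and 1 called genes in the same order, so that DamV133A-LMNB1 against untreated cells kept 1 call of 3. Of all 17725 genes, the higher and lower calls were then 1419 and 657, 3 and 6, 1546 and 929, 1 and 0, 2031 and 1877, and 962 and 461. Deviations of same-numbered libraries correlated from -0.25 to 0.13 in RNA and by at most 0.03 in DamID, and the labels do not say that a number marks a shared culture, so the numbers only name libraries.

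No value of a member that was called in the edgeR fit of all libraries with TMM reversed. Values near 0 that this fit did not call did. SUV39H2 in DamV133A-LMNB1 against DamV133A became -0.075 with library totals and, with single libraries left out, ran from -0.0072 (without DamV133A replicate 1; -0.0034 without DamV133A-LMNB1 replicate 1) to 0.031; against m6A-Tracer it became -0.042 with library totals and ran from -0.0031 (without m6A-Tracer replicate 2) to 0.039. EHMT2 became -0.074 with its most abundant row alone against DamV133A and -0.12 against m6A-Tracer, where library totals gave -0.00737. Against untreated cells EHMT2 became 0.0022 with DESeq2 size factors, 0.00951 with library totals and 0.0021 with DESeq2, and ran from -0.014 to 0.012 with single libraries left out (0.011 without untreated replicate 1); in m6A-Tracer it became 0.017 with library totals. In DamV133A-LMNB1 against untreated cells with single libraries left out, SETDB1 ran from -0.0725 to 0.027 (without DamV133A-LMNB1 replicate 2) and CBX3 from -0.16 to 0.0081 (without replicate 1). EHMT1 in DamV133A against untreated cells became 0.072 with library totals and ran from -0.064 to 0.019 (without DamV133A replicate 2). The cause was not tested.

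For DamWT-LMNB1 against DamWT, 1 of 17 bins was called with DESeq2 (14.6% of all bins). For the difference of the V133A and WT effects, DESeq2 called 6 of 17 (15.2%). Calls over all bins also changed when single libraries were left out, which leaves 1 library in a group. In single cells, thinning to 10000 fragments left out 1 cell. It gave ratios of 0.331 in batch 1 fusion cells, 0.386 in batch 2 fusion cells and 1.12 in DamV133A cells. The midpoint bins alone gave 1.33 in DamV133A cells. In both settings fusion and DamV133A cells overlapped. With midpoint bins the highest batch 1 fusion cell was at 1.29 and the lowest DamV133A cell at 1.14. After thinning the highest batch 2 fusion cell was at 1.12 and the lowest DamV133A cell at 0.957. The share of batch 1 fusion cells at 1 or more, 6.67%, was 0% with a threshold of 2, without cell 7 (ratio 0.238) or after thinning. Of the values of single bins under the alternatives, 306 kept their direction and call, 17 lost the call and 6 gained it.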
